A study of Mus musculus with 12 samples.

Results

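The genes described here encode 2 vasoactive peptide systems, adrenomedullin and the endothelins. They were chosen by name as the rows of the count table for Adm, Calcrl, Ramp1, Ramp2, Ramp3, Edn1, Edn2, Ednra, Ednrb and Ece1, which are 10 of the 54446 genes listed. Adrenomedullin, the product of Adm, is a secreted peptide that relaxes vessels and acts through the receptor CALCRL, which needs a receptor activity-modifying protein (RAMP) as a partner; RAMP2 or RAMP3 makes it an adrenomedullin receptor, whereas RAMP1 makes it a receptor for the related peptide CGRP. Endothelins are made as inactive precursors and released by the endothelin-converting enzyme, the product of Ece1, and act through the receptors EDNRA and EDNRB, of which EDNRA mediates constriction in smooth muscle. Adm and Edn1 are textbook targets of hypoxia-inducible factors, the transcription factors that bind hypoxia response elements when oxygen is low.

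RNA-seq was performed on NIH3T3 cells, an established line of mouse embryonic fibroblasts, and on dN-VEGF cells derived from them, to ask how removal of N-VEGF changes the transcriptome. N-VEGF is the amino-terminal part of a long product of Vegfa, and its coding region had been removed with Cas9, guide RNAs and selectable donor cassettes that were later excised with VCre. The 4 groups were wild-type (WT) cells and dN-VEGF cells, each kept in normoxia (air with CO2) or for 16 h in a chamber below 0.2% oxygen, with 3 samples per group and 12 in all. The deletion line was raised from picked clones, and the number of clones behind the sequenced RNA was not given, so a difference between the lines and a difference between clones cannot be told apart. The methods say in general that experiments were repeated, but not whether the sequenced samples of a group were separate cultures, so p-values measure the spread between these samples, which may be technical.

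Total counts ranged from 30519052 to 43056690 per sample. Levels are given as CPM, counts scaled to library size after TMM scaling, and differences as log2 fold changes with approximate standard errors (SE). Tests are edgeR's quasi-likelihood F tests, with p-values adjusted over 14724 genes by the Benjamini-Hochberg method, and genes with an adjusted p below 0.05 were called. Every adjusted p that follows comes from this test unless another fit is named. In log2 CPM, WT normoxia sample 2 correlated at 0.956 and 0.957 with samples 1 and 3 of its group, which correlated at 0.996 with each other, while all pairs in the other groups reached at least 0.986. Results that rest on this sample are therefore also given without it. All 10 genes of a list of hypoxia-induced transcripts rose in both lines. Vegfa rose from 69.4 ± 26.0 to 280 ± 9.71 CPM in WT and from 35.7 ± 1.54 to 429 ± 9.35 CPM in dN-VEGF cells (SD, n = 3), and its count per gene does not check a deletion of part of it.

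The fibroblast label was checked against markers. Of 10 fibroblast markers, 9 reached 1 CPM in each group, with summed levels of 17300 to 43800 CPM, carried mainly by Vim, Fn1 and Col1a2. Of the 9 tested, 1 was called higher and 4 lower in WT hypoxia (median log2 -0.49), beside 18.2% and 18.3% of all genes. In dN-VEGF hypoxia 5 were higher and 2 lower (median 0.69), beside 26.9% and 26.4%. Endothelial markers summed to 3.34 to 7.57 CPM in normoxia and 12 to 27.6 CPM in hypoxia, with Kdr and Emcn at 3 counts or fewer in all libraries. Smooth muscle markers summed to 301 to 1180 CPM in normoxia and 2680 to 3350 CPM in hypoxia. Leukocyte markers summed to 4.87 to 13.0 CPM in normoxia and 35.6 to 59.0 CPM in hypoxia, with Ptprc and Adgre1 at 3 counts or fewer throughout. Epithelial markers stayed at or below 8.80 CPM, with Epcam at 3 counts or fewer. Within hypoxia most of these sums also differed between WT and dN-VEGF libraries: fibroblast markers at 27300 to 29500 against 41700 to 43800 CPM, endothelial markers at 12 to 14.6 against 22.5 to 27.6, leukocyte markers at 35.6 to 35.9 against 54.7 to 59 and epithelial markers at 8.18 to 8.80 against 1.13 to 1.29, while smooth muscle markers overlapped. Single genes carried much of the smaller sums, whose other genes did not all move alike. Of 5 endothelial markers tested in hypoxia, 1 was called higher in dN-VEGF than in WT cells and 1 lower (median log2 difference -1). Cdh5 stood at 6.03 CPM in WT and 22.2 CPM in dN-VEGF hypoxia, and Tie1 at 1.87 and 0.574 CPM. Among leukocyte markers Csf1r stood at 29.5 and 51.6 CPM, and Cd68 at 6.10 and 5.10 CPM. The marker sums moved with hypoxia, and in hypoxia with the line, beside the results that follow, and their part in them was not tested.

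The sequence just upstream of the 3 peptide genes is shown because these genes rose in hypoxia in both lines, and it was searched for the core of the hypoxia response element. The RefSeq promoter windows (build GRCm38.p6) gave the 250 bases before the start of Adm (chr7:110627407-110627656, plus strand), Edn2 (chr4:120160956-120161205, plus strand) and Edn1 (chr13:42301226-42301475, plus strand). Capitals mark ACGTG or GCGTG on either strand, so that CACGC is GCGTG read from the other strand.
Adm: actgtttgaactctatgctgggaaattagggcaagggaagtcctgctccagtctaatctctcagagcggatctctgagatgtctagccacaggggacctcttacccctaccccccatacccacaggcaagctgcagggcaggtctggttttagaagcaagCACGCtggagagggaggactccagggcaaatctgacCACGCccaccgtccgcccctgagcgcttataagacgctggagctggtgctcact
Edn2: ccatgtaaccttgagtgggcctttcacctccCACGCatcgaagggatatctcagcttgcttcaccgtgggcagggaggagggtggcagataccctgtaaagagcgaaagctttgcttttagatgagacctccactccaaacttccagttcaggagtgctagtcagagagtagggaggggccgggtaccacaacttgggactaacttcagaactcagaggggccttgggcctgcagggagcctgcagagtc
Edn1: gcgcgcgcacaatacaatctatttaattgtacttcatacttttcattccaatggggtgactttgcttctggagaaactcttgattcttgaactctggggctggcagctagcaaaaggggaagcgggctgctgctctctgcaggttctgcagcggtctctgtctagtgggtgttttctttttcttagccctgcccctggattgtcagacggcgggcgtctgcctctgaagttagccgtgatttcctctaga
Adm held 2 matches, which began 90 and 54 bases before its start, Edn2 held 1 match, which began 219 bases before its start, and the Edn1 window held none. A window was found for 9 of the 10 genes, all but Ramp2, and 5 of these 9 (Adm, Edn2, Ramp3, Ednrb and Ece1) had a match in at least 1 window. Ece1 alone has several windows, most of them with a match, and it weighs on a count by window. Counted by window, 7 of the 12 held a match, beside 38.6% of all 32851 windows of this length. Binding was not measured.

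In both lines the 3 peptide genes rose in hypoxia, whereas Ramp2, Ramp3 and Ednra fell. Of the 10 genes, 8 passed the filter on low counts and were tested; Ramp1 and Ednrb did not pass and are described by their counts. In WT cells 3 of the 8 were higher in hypoxia (Adm, Edn1 and Edn2), against 18.2% of all genes tested, and 3 were lower (Ramp2, Ramp3 and Ednra), against 18.3% of all genes. In dN-VEGF cells 5 were higher, with Calcrl and Ece1 added to the 3 peptides, against 26.9% of all genes, and the same 3 were lower, against 26.4%. The median log2 fold change of the 8 genes was 0.28 in WT and 0.94 in dN-VEGF cells, beside -0.07 and -0.01 over all genes tested.

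Between the lines, 3 of the 8 genes differed in normoxia and 6 in hypoxia. In normoxia 1 was higher in dN-VEGF cells (Ramp3), against 1.39% of all genes, and 2 were lower (Calcrl and Ramp2), against 2.97%. After hypoxia 2 were higher (Ramp3 and Ece1), against 10.8% of all genes, and 4 were lower (Edn1, Edn2, Calcrl and Ramp2), against 9.36%. A test of the difference between the hypoxia responses called 1 of the 8, Edn2, whose log2 response was smaller in dN-VEGF cells, against 1.15% of all genes called in that direction; 0 were called with a larger log2 response, against 2.22%. Ece1 had a larger response at an unadjusted p of 0.00257, and DESeq2 called Ece1 as well as Edn2. These counts rest on single libraries. Without WT normoxia sample 2 they were 6 in normoxia, 7 in hypoxia and 3 for the responses, beside 49.4%, 43.4% and 45.4% of all genes called in that fit. The normoxic count was 1 without WT normoxia sample 3 or dN-VEGF normoxia sample 1 or 3, and the hypoxic count was 3 without any 1 of the 6 hypoxic libraries. For the responses the count was 2 without dN-VEGF normoxia sample 2 and 0 without any 1 of the other 10 libraries. The median log2 difference between the lines over the 8 genes was -0.71 in normoxia and -1 in hypoxia, beside -0.03 and -0.01 over all genes.

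**Figure D1:**
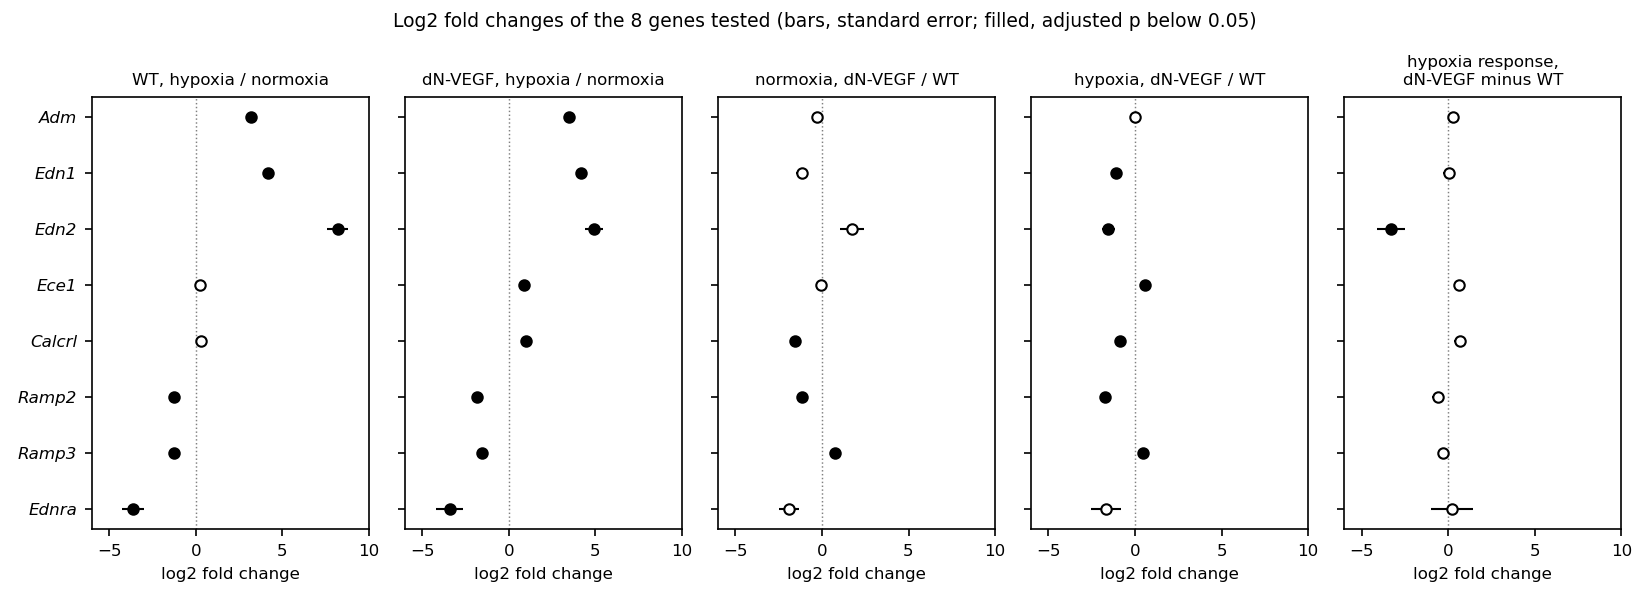
Log2 fold changes of the 8 genes tested, with 1 panel for each comparison, bars for the standard error (hidden where shorter than the symbol) and filled symbols for an adjusted p below 0.05. The peptide genes lie right of 0 and Ramp2, Ramp3 and Ednra left of 0 in both hypoxia panels, and Edn2 is the filled symbol in the panel of the difference between responses.

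Per kilobase of exon, the order of these genes changed with oxygen. In WT normoxia Adm (21.1 ± 4.88 CPM per kb; SD, n = 3), Ramp3 (20.5 ± 1.96) and Ece1 (18.6 ± 1.20) led and did not differ beyond their spread. Ramp2 (1.07 ± 0.112) and Ednra (0.923 ± 0.613) came next, then Calcrl, Edn1 and Edn2 at 0.224 or less, and neighbours within each of these sets overlapped in spread. In WT hypoxia each neighbour in the order was separated by more than its spread: Adm stood at 192 ± 2.45 CPM per kb, Edn2 at 28.5 ± 2.05, Ece1 at 22.0 ± 0.376, Ramp3 at 8.51 ± 0.320 and Edn1 at 3.74 ± 0.425. On this scale Edn2 moved from the lowest place among the tested genes, within the spread of its neighbours, to a place just below Adm. In dN-VEGF normoxia Ramp3 led at 34.6 ± 5.94 CPM per kb, above Ece1 (18.2 ± 2.98) and Adm (17.4 ± 4.89), which did not differ beyond their spread. In dN-VEGF hypoxia Adm (195 ± 5.49) was followed by Ece1 (33.3 ± 1.17), Ramp3 (11.6 ± 0.881) and Edn2 (9.84 ± 0.543), and Calcrl (0.152 ± 0.0128) and Ramp2 (0.133 ± 0.0577) overlapped in spread.

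**Figure D2:**
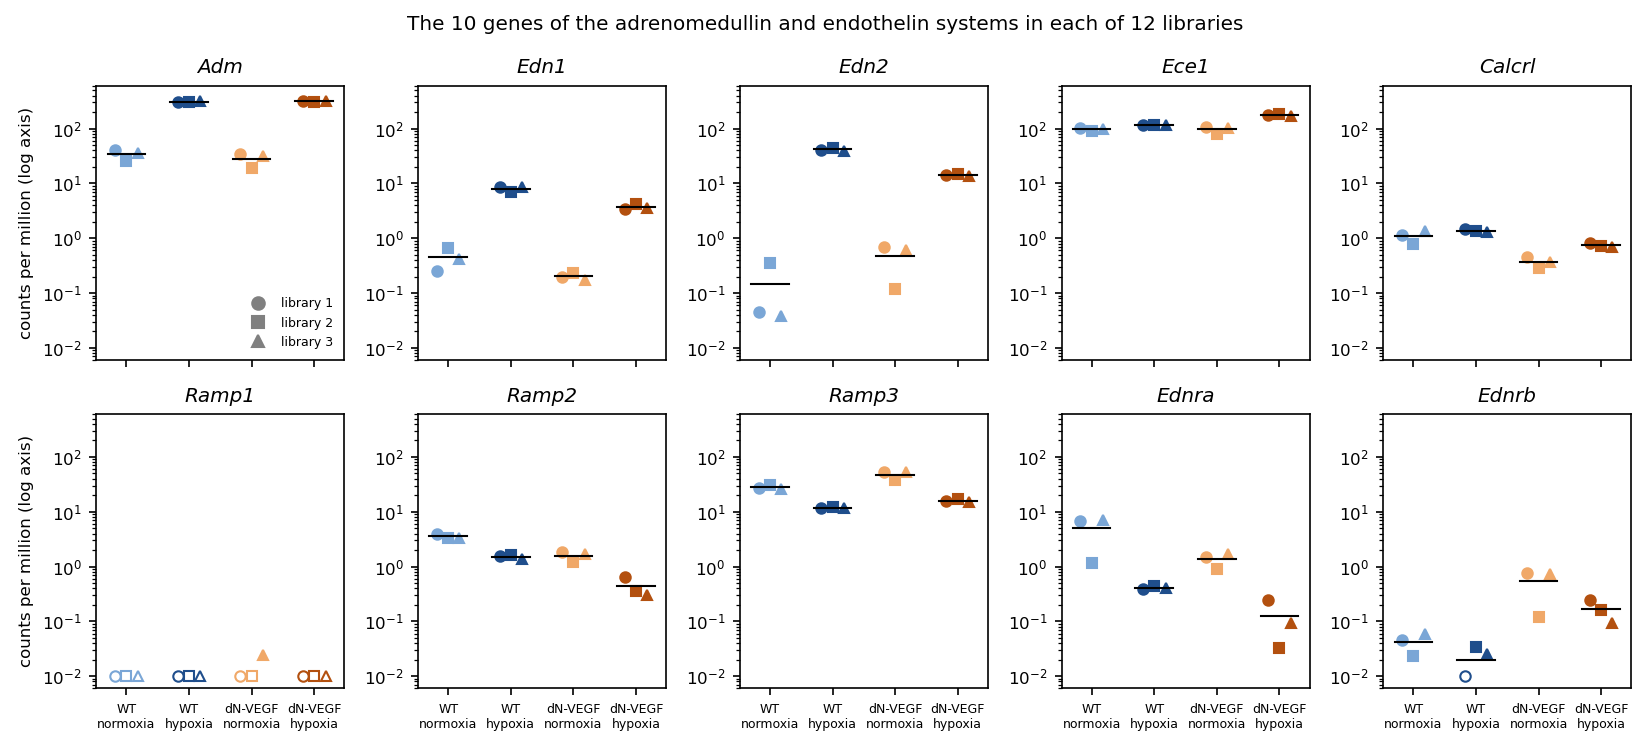
Level of each of the 10 genes in the 12 libraries, in CPM on a log axis, with a symbol for each library number, a line at the group mean and open symbols at the foot of the axis for libraries with no count. Adm rises from 19.1 to 40.5 CPM in normoxia to 306 to 325 CPM in hypoxia, and Edn2 and Ednra in WT normoxia show sample 2 apart from samples 1 and 3.

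Adm (ENSMUSG00000030790, chr7:110627661-110629820, plus strand, GRCm38) was the most abundant of the ligands in all 4 groups. Its level in WT normoxia samples 1, 2 and 3 was 40.5, 25.2 and 36.6 CPM, and in WT hypoxia 310, 306 and 314 CPM. The dN-VEGF samples had 33.8, 19.1 and 31.4 CPM in normoxia and 325, 308 and 314 CPM in hypoxia. Every hypoxic library lay above every normoxic one, sample 2 was the lowest of its group in normoxia in both lines, and the lines overlapped in hypoxia. Adm rose 9.09-fold in WT (log2 3.19, SE 0.22, adjusted p = 1.5e-06) and 11.2-fold in dN-VEGF cells (log2 3.49, SE 0.23, adjusted p = 4.3e-07). The lines differed in hypoxia by 0.03 (SE 0.20, adjusted p = 0.95) on the log2 scale, and this value was -0.19 when total counts replaced TMM scaling. In normoxia they differed by -0.28 (SE 0.21, adjusted p = 0.51), and without WT normoxia sample 2 by -0.45 (adjusted p = 0.042).

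Edn1 (ENSMUSG00000021367, chr13:42301476-42307990, plus strand), which encodes the best-known endothelin, was near the floor in normoxia and rose in hypoxia in both lines. It had 11, 29 and 22 counts in WT normoxia and 331, 203 and 332 counts in WT hypoxia. The dN-VEGF libraries held 9, 10 and 7 counts in normoxia and 110, 130 and 114 in hypoxia. All hypoxic libraries were above all normoxic ones, and the lines did not overlap in either condition. The mean level went from 0.449 ± 0.212 to 8 ± 0.911 CPM in WT (17.7-fold, log2 4.15, SE 0.28, adjusted p = 1.3e-06) and from 0.201 ± 0.0332 to 3.71 ± 0.411 CPM in dN-VEGF cells (18.2-fold, log2 4.19, SE 0.31, adjusted p = 1.2e-06; SD, n = 3). The responses differed by 0.04 (SE 0.32, adjusted p = 0.98) on the log2 scale, a value whose sign changed between alternatives. After hypoxia Edn1 was 2.16-fold lower in dN-VEGF than in WT cells (log2 -1.11, SE 0.24, adjusted p = 0.0093), and this call was kept in 19 of 19 alternatives. In normoxia the difference was -1.15 (SE 0.34, adjusted p = 0.086), and it was called by DESeq2 (-1.15, adjusted p = 0.042) and without WT normoxia sample 1 (-1.42, adjusted p = 0.037), while without WT normoxia sample 2 it was -0.76 (adjusted p = 0.072). Of the exon bases of Edn1, 1.64% are shared with another annotated gene.

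Edn2 (ENSMUSG00000028635, chr4:120161206-120167360, plus strand), another endothelin gene, had the largest fold change of the set in both lines. WT normoxia samples held 2, 15 and 2 counts, and WT hypoxia samples 1551, 1318 and 1558. In dN-VEGF cells the counts were 32, 5 and 25 in normoxia and 465, 469 and 441 in hypoxia. The hypoxic libraries of WT were all above those of dN-VEGF cells, and in normoxia the lines overlapped, since sample 2 was the highest of its group in WT and the lowest in dN-VEGF cells. The mean level went from 0.144 ± 0.177 to 41.7 ± 2.99 CPM in WT (SD, n = 3; log2 8.20, SE 0.60, adjusted p = 2.1e-06). In dN-VEGF cells it went from 0.473 ± 0.310 to 14.4 ± 0.794 CPM (log2 4.91, SE 0.51, adjusted p = 1.4e-05). The WT value rests on few normoxic counts, and without WT normoxia sample 2 it was 9.86 (adjusted p = 1.3e-09). Samples 1 and 3, which are then left, hold 2 counts each, too few for a usable level, so the size of 9.86 is uncertain.

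The difference between these responses was -3.29 (SE 0.79, adjusted p = 0.048) on the log2 scale. Its direction was kept in 18 of 18 alternatives, with values of -5.40 to -2.80, but the call in 7 of 18. Without WT normoxia sample 2 the difference was -4.95 (adjusted p = 0.00014), while leaving out any 1 of 10 other libraries (WT normoxia 1 or 3, dN-VEGF normoxia 1 or 3, or any hypoxic library) gave an adjusted p of 0.10 to 0.14. With replicate number as a block it was -3.30 (adjusted p = 0.068). After hypoxia Edn2 was 2.90-fold lower in dN-VEGF than in WT cells (log2 -1.53, SE 0.40, adjusted p = 0.021), and the call was lost without any 1 of the 6 hypoxic libraries (adjusted p = 0.066 to 0.087). In normoxia the lines differed by 1.76 (SE 0.69, adjusted p = 0.19), and without WT normoxia sample 2 by 3.42 (adjusted p = 0.0021). All values without that sample rest on 2 counts in each of WT normoxia samples 1 and 3, so their size is uncertain.

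The balance of the endothelin genes was read as a ratio of counts per kilobase within each library, which needs no scaling between libraries. The Edn2 to Edn1 ratio was 0.266, 0.757 and 0.133 in WT normoxia and 6.86, 9.50 and 6.87 in WT hypoxia. In dN-VEGF cells it was 5.2, 0.732 and 5.23 in normoxia and 6.18, 5.28 and 5.66 in hypoxia. Edn2 was thus below Edn1 in all WT normoxia libraries and above it in all WT hypoxia libraries, while in dN-VEGF normoxia it was above Edn1 in samples 1 and 3 and below it in sample 2. The normoxic ratios rest on 2 to 32 counts per gene.

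**Figure D3:**
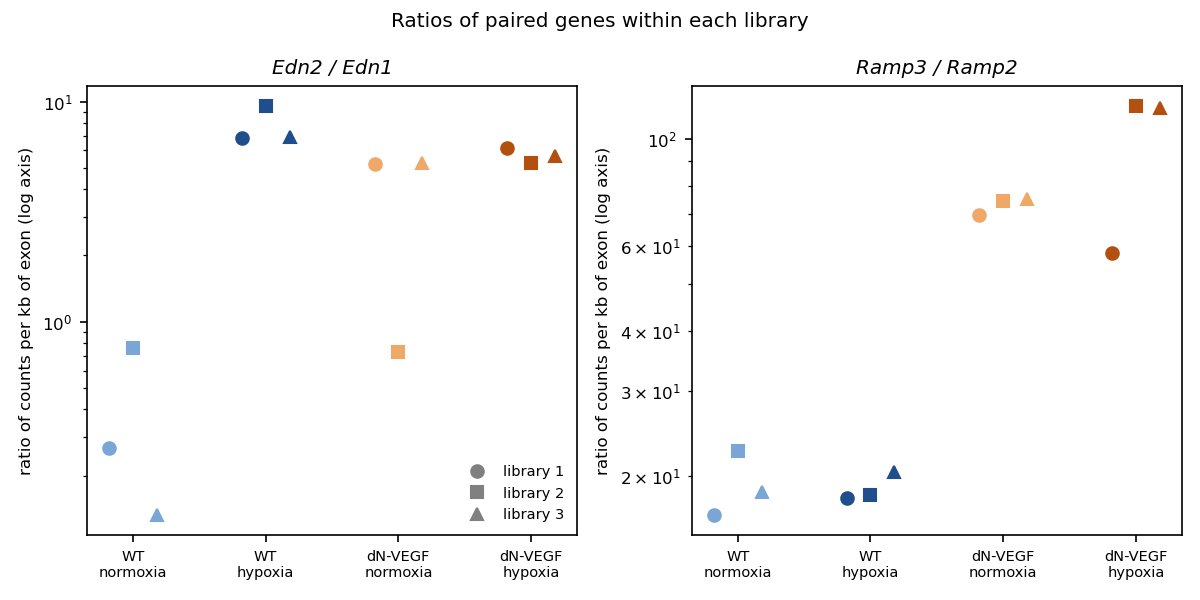
Ratio of counts per kilobase of exon within each library on a log axis, for Edn2 over Edn1 and for Ramp3 over Ramp2, with a symbol for each library number. Edn2 over Edn1 lies between 0.133 and 0.757 in WT normoxia and between 5.28 and 9.50 in hypoxia of both lines, and all dN-VEGF values of Ramp3 over Ramp2 (58.1 to 117) lie above all WT values (16.6 to 22.5).

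Ece1 (ENSMUSG00000057530, chr4:137862237-137965229, plus strand), whose product cleaves big endothelin, was abundant in all groups. It stood at 105, 92.0 and 99.7 CPM in WT normoxia and at 114, 118 and 118 CPM in WT hypoxia. In the deletion line the level was 107, 78.4 and 104 CPM in normoxia and 175, 183 and 171 CPM in hypoxia. The dN-VEGF hypoxia libraries were above all 9 others. Ece1 rose 1.83-fold in dN-VEGF cells (log2 0.87, SE 0.12, adjusted p = 9.2e-05), whereas in WT the value was 0.24 (SE 0.11, adjusted p = 0.12). With scaling by total counts these values were 0.46 (adjusted p = 0.016) and 0.01 (adjusted p = 0.97), and the responses differed by 0.45 (adjusted p = 0.19). The WT value was called without dN-VEGF normoxia sample 2 (0.24, adjusted p = 0.028). After hypoxia Ece1 was 1.51-fold higher in dN-VEGF than in WT cells (log2 0.59, SE 0.12, adjusted p = 0.0052), and with scaling by total counts this was 0.37 (adjusted p = 0.076). The responses differed by 0.63 (SE 0.16, adjusted p = 0.061). This difference was called without WT normoxia sample 2 (0.68, adjusted p = 0.0025) and without dN-VEGF normoxia sample 2 (0.50, adjusted p = 0.036).

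Calcrl (ENSMUSG00000059588, chr2:84330626-84425411, minus strand), the shared receptor of adrenomedullin and CGRP, was low throughout and lower in dN-VEGF cells. WT cells had 50, 34 and 70 counts in normoxia and 57, 39 and 51 in hypoxia. In dN-VEGF cells the counts were 21, 12 and 15 in normoxia and 26, 22 and 23 in hypoxia. Every dN-VEGF library was below every WT library of its condition. Calcrl was 2.95-fold lower in dN-VEGF cells in normoxia (log2 -1.56, SE 0.25, adjusted p = 0.008) and 1.84-fold lower in hypoxia (log2 -0.88, SE 0.24, adjusted p = 0.027), and the hypoxic call was lost without any 1 of the 6 hypoxic libraries (adjusted p = 0.058 to 0.094). Hypoxia raised Calcrl in dN-VEGF cells (log2 1.002, SE 0.26, adjusted p = 0.008), a value that was 0.60 (adjusted p = 0.11) with scaling by total counts. In WT cells the value was 0.32 (SE 0.23, adjusted p = 0.30), and the responses differed by 0.68 (SE 0.35, adjusted p = 0.30), or by 0.86 (adjusted p = 0.035) without WT normoxia sample 2.

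Among the RAMP genes, Ramp3 was the main form, Ramp2 was low and Ramp1 was all but undetected. Ramp1 (ENSMUSG00000034353, chr1:91179822-91225196, plus strand) had 0 counts in 11 libraries and 1 count in dN-VEGF normoxia sample 3. Ramp2 (ENSMUSG00000001240, chr11:101246028-101259546, plus strand) had 174, 143 and 174 counts in WT normoxia and 59, 47 and 53 in WT hypoxia. The deletion line had 84, 52 and 68 counts in normoxia and 21, 11 and 10 in hypoxia. The groups of each comparison did not overlap. Ramp2 fell in hypoxia by 1.25 (SE 0.24, adjusted p = 0.0022) in WT and by 1.83 (SE 0.28, adjusted p = 0.00024) in dN-VEGF cells on the log2 scale. It was 2.26-fold lower in dN-VEGF than in WT cells in normoxia (log2 -1.17, SE 0.24, adjusted p = 0.023) and 3.39-fold lower in hypoxia (log2 -1.76, SE 0.28, adjusted p = 0.002). The normoxic call was lost without any 1 of WT normoxia samples 1 and 3 and the 3 dN-VEGF normoxia samples (adjusted p = 0.052 to 0.087), while the hypoxic call was kept in 20 of 20 alternatives. Of the exon bases of Ramp2, 33.4% are shared with Vps25 on the same strand, so part of its count is uncertain.

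Ramp3 (ENSMUSG00000041046, chr11:6658521-6677475, plus strand) went the same way in hypoxia and the opposite way between the lines. It stood at 27.6, 31.2 and 26.0 CPM in WT normoxia and at 11.5, 12.2 and 11.5 CPM in WT hypoxia. The dN-VEGF libraries stood at 52.6, 38.3 and 52.3 CPM in normoxia and at 16, 17.3 and 14.8 CPM in hypoxia. All dN-VEGF libraries were above the WT libraries of their condition. Ramp3 fell in hypoxia by 1.27 (SE 0.14, adjusted p = 3.6e-05) in WT and by 1.58 (SE 0.14, adjusted p = 3.8e-06) in dN-VEGF cells on the log2 scale. It was 1.69-fold higher in dN-VEGF cells in normoxia (log2 0.76, SE 0.13, adjusted p = 0.011), a call that was lost without WT normoxia sample 3 or dN-VEGF normoxia sample 1 or 3 (adjusted p = 0.051 to 0.060). In hypoxia it was 1.36-fold higher (log2 0.45, SE 0.14, adjusted p = 0.038), and this was lost without any 1 of the 6 hypoxic libraries (adjusted p = 0.065 to 0.13), with total counts only (0.23, adjusted p = 0.24) and with replicate number as a block (0.45, adjusted p = 0.054). Of its exon bases, 7.32% are shared with Gm11978 on the opposite strand.

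The ratio of Ramp3 to Ramp2, the partners that give CALCRL its adrenomedullin response, separated the lines in every library. Per kilobase it was 16.6, 22.5 and 18.5 in WT normoxia and 18, 18.2 and 20.4 in WT hypoxia. The deletion line had ratios of 69.7, 74.4 and 75.1 in normoxia and 58.1, 117 and 116 in hypoxia. Within WT the conditions overlapped, and the dN-VEGF values were higher than those of WT in 6 of 6 libraries. The ratios of dN-VEGF hypoxia rest on 10 to 21 counts of Ramp2. All ratios use the full exon length of Ramp2, of which 33.4% is shared with Vps25, so their absolute size is uncertain.

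Same-numbered normoxia samples of the lines deviated from their group means together (correlations of 0.355 to 0.498), so the normoxic comparison between the lines was also fitted with replicate number as a block. Samples 1 and 3 deviated together across numbers as well (0.347 and 0.358), and samples numbered 2 went against both (-0.465 to -0.379), so the correlations separate sample 2 from samples 1 and 3 in both lines and do not tell samples 1 and 3 apart. Fitted to all 12 samples with the block, the calls on Calcrl, Ramp2 and Ramp3 stood. Fitted with the block to the 6 normoxia samples alone, a fit chosen after seeing the data, 0 of the 8 genes were called, against 6 at an unadjusted p below 0.05: Calcrl differed by -1.55 (adjusted p = 0.17), Ramp2 by -1.18 (adjusted p = 0.16) and Ramp3 by 0.76 (adjusted p = 0.21), and 1 gene was called in all.

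Ednra (ENSMUSG00000031616, chr8:77663031-77724464, minus strand), which couples to calcium release and contraction in smooth muscle, fell in hypoxia in both lines. It had 297, 51 and 374 counts in WT normoxia and 15, 13 and 16 in WT hypoxia. The dN-VEGF libraries had 69, 38 and 69 counts in normoxia and 8, 1 and 3 in hypoxia. All normoxic libraries were above all hypoxic ones, and in normoxia WT sample 2 lay within the dN-VEGF range while samples 1 and 3 lay above it. The mean level went from 5.05 ± 3.36 to 0.414 ± 0.0284 CPM in WT (12.2-fold lower, log2 -3.61, SE 0.64, adjusted p = 0.0012) and from 1.36 ± 0.410 to 0.125 ± 0.113 CPM in dN-VEGF cells (10.6-fold lower, log2 -3.41, SE 0.78, adjusted p = 0.0035; SD, n = 3). Without dN-VEGF hypoxia sample 1 the dN-VEGF value was -4.37 (adjusted p = 0.0052). In normoxia the lines differed by -1.90 (SE 0.57, adjusted p = 0.09) and without WT normoxia sample 2 by -2.36 (adjusted p = 1.8e-05). In hypoxia they differed by -1.69 (SE 0.87, adjusted p = 0.20), and without the same sample by -1.69 (adjusted p = 0.017). The hypoxic value rests on few counts and was -2.66 (adjusted p = 0.15) without dN-VEGF hypoxia sample 1.

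Ednrb (ENSMUSG00000022122, chr14:103814625-103844402, minus strand), the receptor that also clears endothelin, was detected mainly in dN-VEGF cells. It had 2, 1 and 3 counts in WT normoxia and 0, 1 and 1 in WT hypoxia. In dN-VEGF cells it had 36, 5 and 30 counts in normoxia and 8, 5 and 3 in hypoxia. The lines did not overlap in either condition, and sample 2 was again the lowest of dN-VEGF normoxia. Summed counts were 71 against 6 in normoxia, a ratio of 12.7 after scaling (exact 95% interval 5.55 to 35.7), and 16 against 2 in hypoxia, a ratio of 8.95 (2.1 to 80.2). These intervals cover counting error only, and the gene was not tested across samples. The Ednra to Ednrb ratio per kilobase was 116, 39.7 and 97.1 in WT normoxia, and in WT hypoxia 10.1 and 12.5 in samples 2 and 3, with no value for sample 1, which had 0 counts of Ednrb. In dN-VEGF cells it was 1.49, 5.92 and 1.79 in normoxia and 0.779, 0.156 and 0.779 in hypoxia. Every dN-VEGF ratio was below every WT ratio, sample 2 stood apart in both normoxia groups, and the ratios rest on as little as 1 count.

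The other genes of both pathways were taken from lists written for this set, of which some members are too low to test. Of 10 genes of the calcitonin family and adrenomedullin handling, 4 were tested, and in hypoxia 2 rose and 1 fell in each line; over all genes 18.2% rose and 18.3% fell in WT, and 26.9% and 26.4% in dN-VEGF cells. Ackr3, a decoy receptor that also takes up adrenomedullin, rose by 1.53 (SE 0.26, adjusted p = 0.00083) in WT and by 1.28 (SE 0.26, adjusted p = 0.0015) in dN-VEGF cells on the log2 scale. Pam, the enzyme that amidates adrenomedullin to its active form, fell by 0.51 (SE 0.09, adjusted p = 0.0008) and by 1.01 (SE 0.09, adjusted p = 3.5e-06), and after hypoxia it was lower in dN-VEGF than in WT cells (-0.63, SE 0.09, adjusted p = 0.00088). Adm2, the gene of a related peptide that acts on the same receptors, is named here after its values were seen. It had at most 2 counts in a WT normoxia library and at most 1 in a dN-VEGF normoxia library, so it has no usable normoxic level. In hypoxia it reached 0.775 CPM in WT (at most 34 counts) and 1.07 CPM in dN-VEGF cells (at most 37 counts). It was called higher in both lines (adjusted p = 2.9e-05 and 3.7e-06). Between the lines 0 of the 4 were called in normoxia (0 by DESeq2 and 0 at an unadjusted p below 0.05, but 2 without WT normoxia sample 2, where 49.4% of all genes were called) and 1 was lower in hypoxia, beside 9.36% of all genes. The test of the responses called 1, Pam, which fell further in dN-VEGF cells (log2 difference -0.50, SE 0.12, adjusted p = 0.049). Beside it, 1.15% of all genes were called with a lower (more negative) log2 change in dN-VEGF cells. The call on Pam was lost without any 1 of 10 libraries (adjusted p = 0.077 to 0.14).

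Of 9 genes of endothelin processing, 3 were tested. Furin, which makes the first cut of the endothelin precursor, fell in hypoxia by 0.73 (SE 0.11, adjusted p = 0.00046) in WT and by 0.58 (SE 0.11, adjusted p = 0.0012) in dN-VEGF cells on the log2 scale. Pcsk7, a related protease, rose by 0.26 (SE 0.09, adjusted p = 0.032) in dN-VEGF cells, a call that was lost without any 1 of 5 dN-VEGF libraries (all but normoxia sample 2; adjusted p = 0.055 to 0.11) and a value that was -0.15 with scaling by total counts. Over all genes, 1.39% were higher and 2.97% lower between the lines in normoxia, and 10.8% and 9.36% in hypoxia. For the responses, 2.22% had a higher and 1.15% a lower log2 change in dN-VEGF cells. Beside these shares a count over 3 genes says little. In these tests 0 of the 3 were called by edgeR or DESeq2, and at an unadjusted p below 0.05 there was 1 in normoxia, 0 in hypoxia and 0 for the responses.

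Of 34 genes of G protein signalling, 27 were tested. In hypoxia 5 rose and 3 fell in WT, beside 18.2% and 18.3% of all genes, and 7 rose and 4 fell in dN-VEGF cells, beside 26.9% and 26.4%. These counts are near or below the shares over all genes, and without WT normoxia sample 2 the called genes numbered 14 and 18, beside 54.5% and 68.3% of all genes in that fit. Arrb1, a beta-arrestin that desensitises receptors, rose by 1.26 (SE 0.22, adjusted p = 0.0011) in WT and by 3.86 (SE 0.24, adjusted p = 3.6e-07) in dN-VEGF cells on the log2 scale, and the difference between these responses was 2.60 (SE 0.32, adjusted p = 0.0042). Gna13, a G protein alpha subunit, rose by 1.14 (SE 0.08, adjusted p = 1.6e-06) and by 1.69 (SE 0.08, adjusted p = 5.3e-08). Adcy7, an adenylyl cyclase, fell by 0.84 (SE 0.21, adjusted p = 0.01) and by 1.47 (SE 0.24, adjusted p = 0.00037), and it was lower in dN-VEGF than in WT cells in normoxia (-1.74, SE 0.22, adjusted p = 0.002) and in hypoxia (-2.37, SE 0.24, adjusted p = 0.00015). Between the lines 3 were lower in normoxia, beside 2.97% of all genes, and in hypoxia 2 were higher and 2 lower, beside 10.8% and 9.36%. The test of the responses called 2, both larger in dN-VEGF cells, beside 2.22% of all genes. Without WT normoxia sample 2 the called genes numbered 18, 12 and 13 in these 3 tests, beside 49.4%, 43.4% and 45.4% of all genes. Over the alternatives the counts ranged from 0 to 19 in normoxia, 2 to 19 in hypoxia and 1 to 17 for the responses. Median log2 changes in hypoxia were -0.03 in WT and 0.07 in dN-VEGF cells, beside -0.07 and -0.01 over all genes.

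Of 45 genes of other vasoactive systems, 24 were tested. In hypoxia 5 rose and 9 fell in WT, beside 18.2% and 18.3% of all genes, and 7 rose and 7 fell in dN-VEGF cells, beside 26.9% and 26.4%. Apart from the genes that fell in WT, these counts are near the shares over all genes. Ace, the angiotensin-converting enzyme, had 0 to 3 counts in WT normoxia and 70 to 71 in WT hypoxia, a ratio of 91.7 (exact 95% counting interval 30.9 to 448). In dN-VEGF cells Ace had 0 to 1 counts in normoxia and 91 to 123 in hypoxia, a ratio of 447 (79.6 to 17700). Nos2, the inducible nitric oxide synthase, had 0 counts in all dN-VEGF normoxia libraries and 146 to 157 in dN-VEGF hypoxia, at least 68.0-fold higher against a floor of 3 counts per library. In WT cells Nos2 had at most 5 counts per library in normoxia and at most 41 in hypoxia (log2 4.175, SE 0.485, adjusted p = 0.00017). Agt, the gene of angiotensinogen, fell by 4.58 (SE 1.01, adjusted p = 0.0046) in WT and by 4.31 (SE 1.19, adjusted p = 0.01) in dN-VEGF cells on the log2 scale. Agtr2, an angiotensin receptor, had 21 to 418 counts in WT normoxia and 0 to 2 in WT hypoxia. It also fell in dN-VEGF cells (log2 -4.83, SE 1.14, adjusted p = 0.0042), with at most 6 counts per library in hypoxia. Between the lines 1 was lower in normoxia, beside 2.97% of all genes, and in hypoxia 2 were higher and 3 lower, beside 10.8% and 9.36%. The test of the responses called 1, Nos2 (adjusted p = 0.032), beside 2.22% of all genes with a higher log2 change in dN-VEGF cells. This call was lost without any 1 of 10 libraries (adjusted p = 0.064 to 0.11). Leaving out WT normoxia sample 2 gave 12, 14 and 8 called genes in these 3 tests, beside 49.4%, 43.4% and 45.4% of all genes. Over the alternatives the counts ranged from 0 to 14 in normoxia, 2 to 16 in hypoxia and 0 to 12 for the responses. Median log2 changes in hypoxia were -0.51 in WT and -0.02 in dN-VEGF cells, beside -0.07 and -0.01 over all genes.

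**Figure D4:**
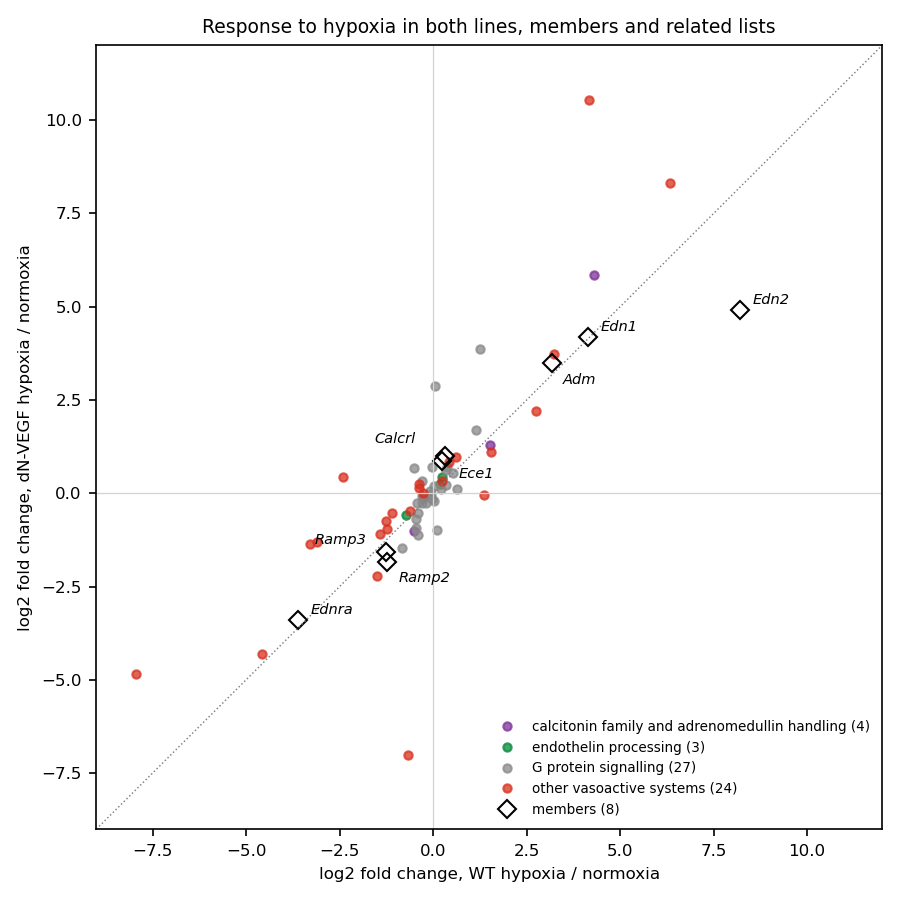
Log2 fold change in hypoxia in WT (horizontal) against dN-VEGF cells (vertical) for the 8 tested genes (diamonds) and the tested genes of the 4 related lists (dots), with a dotted line where the responses are equal. Edn2 lies below the line (8.20 and 4.91), Adm and Edn1 lie close to it, and points far from the origin among the other vasoactive genes include genes with at most 3 counts in a group, whose fitted position is not a bound.

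The genes with the most similar pattern were taken as those with the smallest root-mean-square (RMS) difference in gene-centred log2 CPM over the 12 samples, among genes of at least 10 CPM on average. For Adm these were Pgf, Pdk1 and Pkp2 (RMS difference 0.19, 0.20 and 0.21, where Adm itself ranged over 4.09 log2 units). For Edn1 they were Plod2, Pkp2 and Ier3 (0.59, 0.66 and 0.67, over a range of 5.28). For Edn2 they were Aire, Cavin4 and Ankrd37 (0.89, 1.03 and 1.12, over a range of 8.98). Ramp3 was nearest to Gla, Tubb2a and Dpp7 (0.15, 0.18 and 0.25), Ramp2 to Tubb2b, Fbf1 and Rnf157 (0.35, 0.38 and 0.40) and Ednra to Fgfbp3, Ralgds and Hgf (0.77, 0.77 and 0.80). Calcrl was nearest to Plcd3, Dyrk2 and Nat9 (0.13, 0.27 and 0.28), and Ece1 to Chmp2a, Terf2ip and Tnrc6c (0.08, 0.09 and 0.09). All 12 samples share the same 4 groups, so these are descriptions of likeness.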

How the data were processed

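RNA-seq of 12 mouse samples in 4 groups was used, with groups and replicate numbers from the labels. Per the study's methods and processing notes, the authors made libraries with a TruSeq v2 kit, sequenced single reads of 80 bases, trimmed them with cutadapt 1.10, aligned them with TopHat2 2.1.0 and counted them per gene with HTSeq 0.6.1. The deposited values are raw counts on GRCm38; whether counting used strand is not given in the sources used here, so genes that share exon bases are uncertain. Counts were analysed in R 4.3.3 with edgeR 4.0.16 (filterByExpr, TMM factors, 1 mean per group over 12 samples, quasi-likelihood F test, Benjamini-Hochberg over 14724 genes, adjusted p below 0.05). The SE is the log2 change divided by the square root of F, and is approximate. CPM used TMM-scaled totals, and log2 CPM a prior count of 2. Alternatives were DESeq2 1.42.0, RLE factors, total counts, dropping the filter, requiring 10 counts in all samples, leaving out single samples or both normoxia samples numbered 2, a replicate block, only the groups compared, and a fold of at least 2. The fits were also run on simulated counts with the same spread for all genes and no library set apart. That run therefore says nothing about results that rest on WT normoxia sample 2.

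Replicate numbers come from the sample titles. Deviations from the group means correlated between same-numbered samples at 0.355 to 0.498 between the lines in normoxia, at 0.021 to 0.109 between the lines in hypoxia, at -0.018 to 0.049 between conditions in WT and at 0.047 to 0.065 in dN-VEGF cells. The numbers were taken to pair the samples only in the first, where differently numbered samples correlated at 0.347 and 0.358 (1 with 3) or at -0.465 to -0.379 (2 with 1 or 3).

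Named were all 10 genes, from each related list up to 4 called genes of largest log2 change per comparison with at least 1 CPM on average, and 3 nearest genes per called gene. Some of these list genes enter the counts without their values being given. Among them, the calls on Itpr3, Adcy4, Arrb2 and Bdkrb1 stood without any 1 library. Those on Prkca, Prkacb, Ptgs1 and Nos1 rest on single libraries. The 10 genes, the lists and the tests were chosen with earlier results of these data known.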

Additional observations from a re-analysis of the deposited data

Results flagged for a closer look

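The response of Edn2 to hypoxia differed between the lines by the test of the difference itself. On the log2 scale the dN-VEGF response minus the WT response was -3.29 (SE 0.79, adjusted p = 0.048 by edgeR's quasi-likelihood F test). Hypoxic levels were 39.7 to 45.1 CPM in WT and 13.5 to 15.1 CPM in dN-VEGF cells, and normoxic counts were 2, 15 and 2 against 32, 5 and 25. In normoxia the lines overlapped and their difference was not called (1.76, SE 0.69, adjusted p = 0.19). The adjusted p ranged from 3.6e-09 to 0.14 over 18 alternatives, and the call was kept in 7 of them. With replicate number as a block it was 0.068.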

How the results depend on the processing

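In hypoxia against normoxia, the calls on Adm, Edn1, Edn2, Ednra, Ramp2 and Ramp3 stood in both lines in every alternative that tested them. With at least 10 counts in every sample, 3 of the 8 genes were called in WT and 5 in dN-VEGF cells, since Edn1, Edn2 and Ednra were then not tested, and 0 in the test of the responses (1 as reported, and 1 at an unadjusted p below 0.05). In hypoxia between the lines, 3 of 6 calls had a fold of 2 or more. For the lines in normoxia, 3 genes became 5 with DESeq2, 6 without both normoxia samples numbered 2, and 0 with only the groups compared, without or with the replicate block (5 and 6 at an unadjusted p below 0.05). The responses gave 2 with DESeq2, 4 without both samples numbered 2 and 0 with the replicate block (2 at an unadjusted p below 0.05). Leaving out 1 library gave 1 to 6 in normoxia (6 without WT normoxia sample 2), 3 to 7 in hypoxia, 0 to 3 for the responses, 6 to 7 in WT and 8 in dN-VEGF cells. The replicate block changed the calls on Edn2 in the responses and Ramp3 between the lines in hypoxia, and no other call of the 8 genes.

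Genes called over all genes moved as follows. WT hypoxia against normoxia: 5372, or 9673 without both samples numbered 2, 3353 with only the groups compared, 2312 at a fold of 2, and 4071 to 8024 with 1 library left out. In dN-VEGF cells: 7853, or 4008 at a fold of 2. Lines in normoxia: 642, or 1369 with DESeq2, 7946 without both samples, 15 with only the groups compared, 1 with the block as well, 319 at a fold of 2, and 178 to 7273. Lines in hypoxia: 2961, or 8361 without both samples, 7994 with only the groups compared, 1002 at a fold of 2, and 1552 to 6391. Responses: 496, or 1492 with DESeq2, 903 with total counts, 7901 without both samples, 230 at a fold of 2, and 93 to 6682. Each upper end came without WT normoxia sample 2, and the cause was not tested.

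Values that changed sign were not called, apart from Pcsk7 in dN-VEGF hypoxia (-0.145 with total counts). They were Adm between the lines in hypoxia (-0.194 with total counts), Ece1 between the lines in normoxia (0.048 with no filter and without both samples numbered 2, -0.116 to 0.096 with 1 library left out), Edn1 in the responses (-0.159 with total counts, -0.044 with no filter, -0.222 without both samples, -0.004 with the block, -0.349 to 0.313 with 1 library left out) and Ednra in the responses (-0.097 with the block, -0.765 to 0.671). Total counts in place of TMM moved the median log2 change of all genes from -0.07 to -0.30 in WT, from -0.01 to -0.41 in dN-VEGF cells, from -0.01 to -0.23 between the lines in hypoxia and from 0.03 to -0.15 for the responses. Among the 27 G protein genes, 2 to 18 were called in WT over the alternatives and 5 to 18 in dN-VEGF cells; among the 24 other vasoactive genes 8 to 20 and 7 to 18. Depth limits Ramp1, Ednrb, and normoxic Edn1 and Edn2, which hold few counts.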
